A study of Homo sapiens with 12 samples.

Results

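The metallothionein genes MT1E, MT1F, MT1G, MT1H, MT1X and MT2A and the gene of their zinc-sensing activator, MTF1, were followed in CCRF-CEM-C7H2, a glucocorticoid-sensitive line of T-cell acute lymphoblastic leukemia. Every probe set that the array platform annotates with one of these 7 gene symbols was taken, which gave 13 of the 54675 probe sets and 7 of the 19775 genes that the platform names singly. Each was read separately, since metallothionein transcripts are alike in sequence: 9 of the 13 carry the suffix _x_at, which marks probes that can match other transcripts, and 2 carry _s_at, which marks probes shared by several transcripts of a family or gene. Expression was measured on Affymetrix HG-U133 Plus 2.0 arrays in 4 groups of 3 arrays, the arrays of a group each from an independent experiment with this 1 line. Cells received 100 nM dexamethasone, a synthetic glucocorticoid, for 24 h, or 0.1% ethanol, the carrier, for 24 h. They received the same dexamethasone dose for 6 h, or the same ethanol for 6 h. Experiment numbers run 1, 2 and 3 for the 24 h groups and 0, 1 and 3 for the 6 h groups, so dexamethasone and ethanol arrays of a time share experiment numbers. The study set out to find primary microRNA transcripts that respond to glucocorticoid, and the metallothioneins were read from the same arrays.

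Metallothioneins are small cysteine-rich proteins that bind zinc, copper and cadmium in thiolate clusters, buffer free zinc and take part in the defence against metals and oxidants. Their transcription is driven by MTF1, a zinc finger factor that binds metal response elements in their promoters when cellular zinc is high, and that also drives the zinc exporter gene SLC30A1. Human MT2A is also a textbook glucocorticoid target, with a glucocorticoid response element upstream of its metal response elements, and metallothionein induction by glucocorticoids is well known in liver and in cultured cells.

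The 6 metallothionein members lie within one cluster on chromosome 16, from MT2A at 56608584 to 56609497 to MT1X at 56682470 to 56684196, and MTF1 lies on chromosome 1 at 37809574 to 37859592 (RefSeq, GRCh38.p14). RefSeq promoter windows, running from 250 bases before to 50 bases after the annotated start, were at hand for 4 of the 7 genes, MT2A, MT1H, MT1X and MTF1. They are printed 5′ to 3′ on the gene's strand because MTF1 acts through the metal response element. Capitals mark each match to the core of that element, spelled TGCACNC or TGCGCNC and searched on both strands, with no 2 matches overlapping in these windows.
MT2A, chr16:56608334-56608633, plus strand: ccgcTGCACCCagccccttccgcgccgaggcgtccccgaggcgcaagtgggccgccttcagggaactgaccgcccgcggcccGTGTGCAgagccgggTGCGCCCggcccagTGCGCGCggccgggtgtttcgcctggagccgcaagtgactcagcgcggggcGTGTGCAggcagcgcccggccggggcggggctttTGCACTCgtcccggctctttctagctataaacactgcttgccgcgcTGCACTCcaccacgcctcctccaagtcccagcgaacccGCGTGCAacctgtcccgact
MT1H, chr16:56669564-56669863, plus strand: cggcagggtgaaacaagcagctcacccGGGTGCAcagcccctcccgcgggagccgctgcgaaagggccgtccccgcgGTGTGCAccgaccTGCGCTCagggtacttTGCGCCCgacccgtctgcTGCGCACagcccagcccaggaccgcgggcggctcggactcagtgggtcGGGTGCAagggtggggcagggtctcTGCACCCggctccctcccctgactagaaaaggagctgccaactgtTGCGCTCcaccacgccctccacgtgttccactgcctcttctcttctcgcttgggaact
MT1X, chr16:56682220-56682519, plus strand: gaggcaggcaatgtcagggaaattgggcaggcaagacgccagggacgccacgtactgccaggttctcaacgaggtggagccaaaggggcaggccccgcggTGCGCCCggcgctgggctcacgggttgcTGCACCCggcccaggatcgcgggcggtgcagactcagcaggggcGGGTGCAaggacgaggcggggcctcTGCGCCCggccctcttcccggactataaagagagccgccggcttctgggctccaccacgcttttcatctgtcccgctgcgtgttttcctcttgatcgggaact
MTF1, chr1:37859543-37859842, minus strand: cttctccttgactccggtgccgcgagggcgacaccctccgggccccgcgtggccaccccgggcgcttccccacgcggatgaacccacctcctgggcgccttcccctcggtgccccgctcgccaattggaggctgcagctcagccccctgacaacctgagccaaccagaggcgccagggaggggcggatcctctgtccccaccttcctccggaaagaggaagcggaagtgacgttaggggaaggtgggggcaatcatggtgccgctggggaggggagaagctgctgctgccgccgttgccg
The MT2A and MT1H windows hold 8 matches each, the MT1X window 4 and the MTF1 window 0. Among 35116 RefSeq promoter windows of the same length, 29.6% hold at least 1 match, 0.601% at least 4 and 0.0199% (7 windows) at least 8. In all 3 metallothionein windows matches stand on both strands. A full palindromic glucocorticoid response element, spelled as AGAACA and TGTTCT with any 3 bases between them, is in none of the 4 windows and in 1 of the 35116 (0.00285%). The single hexamer TGTTCT, searched on both strands, is also in none of the 4, against 14.8% of all windows. These are matches of letters in a window of 300 bases and say nothing of binding. An element further than 250 bases before the start, or spelled otherwise, would be missed. The search therefore cannot decide on the known MT2A element, which lies upstream of the metal response elements.

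**Figure D1:**
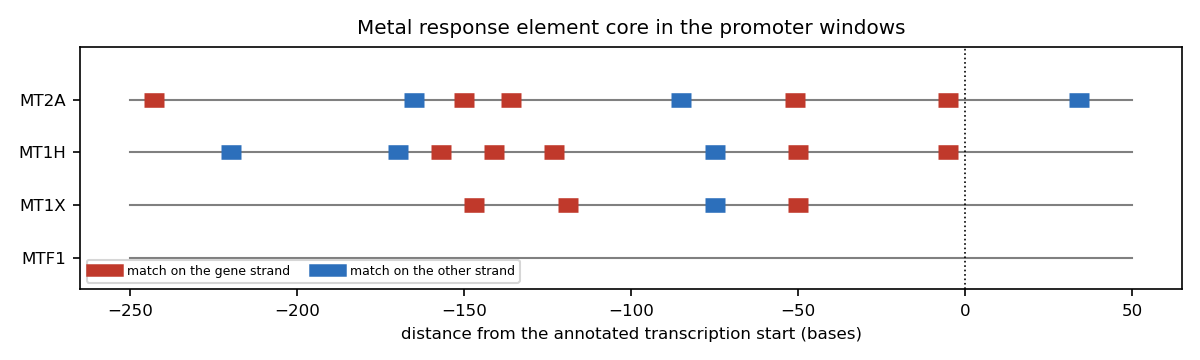
Positions of the metal response element core in the 4 promoter windows, drawn as distance in bases from the annotated transcription start (dotted line). Red blocks are matches on the gene's strand and blue blocks on the other strand, and MT2A and MT1H have 8 blocks each, MT1X 4 and MTF1 0.

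The glucocorticoid response of the cultures was checked with NR3C1, the glucocorticoid receptor gene, TSC22D3 and FKBP5, 2 direct receptor targets, all 3 of which rose with dexamethasone at both times, with log2 differences of 1.95, 9.65 and 3.13 after 24 h and of 1.94, 8.65 and 2.57 after 6 h. Of 10 markers of T cells 8 were measured above the filter, led by CD3D and LCK, and CD2 and CD28 were not. None of 5 myeloid and 2 erythroid markers on the array passed it, while CD79A and CD79B of 4 B-cell markers and COL1A1 and EPCAM of 6 fibroblast and epithelial markers did. CD79A rose by 1.55 and EPCAM fell by 0.57 with dexamethasone at 24 h, and their part in the results was not tested. By the scan codes in the labels there were 3 batches, one for the 24 h arrays, one for the early dexamethasone arrays and one for the early ethanol arrays, so batch and treatment cannot be told apart at 6 h, nor batch and time within a treatment. The poly-A spikes, added to the RNA before labelling, stood higher on the dexamethasone arrays, 0.34 above ethanol after 24 h and 0.47 above it after 6 h. The hybridization controls of the arrays stood higher too, by 0.38 after 24 h and 0.34 after 6 h, and the source of these offsets was not tested. Scaling to the poly-A spikes, below called the spike scale, lowers every log2 difference between the treatments by 0.34 at 24 h and by 0.47 at 6 h.

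Levels are given as the deposited log2 values, in which a step of 1 is a factor of 2. In the order of experiments 1, 2 and 3, MT2A (212185_x_at) stood at 9.33, 9.67 and 10.38 with dexamethasone at 24 h, against 9.15, 9.52 and 9.996 with ethanol. At 6 h, in the order of experiments 0, 1 and 3, it stood at 12.84, 11.91 and 13.69 with dexamethasone, against 12.79, 11.43 and 12.89 with ethanol. All 6 arrays of 24 h lay below all 6 arrays of 6 h, while the 2 treatments overlapped at each time. MT1E (212859_x_at) showed the same order of times, at 5.84, 6.46 and 6.81 with dexamethasone at 24 h, against 6.66, 6.44 and 6.46 with ethanol. At 6 h it stood at 11.21, 9.95 and 12.24 with dexamethasone, against 11.25, 9.34 and 11.25 with ethanol. Experiment 1 gave the lowest MT1E and MT2A array of each 6 h group, and experiment 3 the highest with dexamethasone.

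MT1G (204745_x_at) stood at 5.49, 5.74 and 6.99 with dexamethasone at 24 h, against 5.64, 6.28 and 6.69 with ethanol. At 6 h it stood at 10.41, 8.85 and 11.54 with dexamethasone, against 10.34, 8.47 and 10.13 with ethanol. The times were separated and the treatments overlapped here too. MT1X (204326_x_at) stood at 8.50, 8.77 and 9.16 with dexamethasone at 24 h, against 8.11, 8.24 and 8.81 with ethanol, and its second probe set, 208581_x_at, averaged 8.61 ± 0.35 and 8.29 ± 0.35 (SD, n = 3 each). At 6 h 204326_x_at stood at 12.01, 10.88 and 12.79 with dexamethasone, against 12.19, 10.63 and 11.99 with ethanol. MT1H (206461_x_at) averaged 6.81 ± 0.48 with dexamethasone and 6.74 ± 0.37 with ethanol at 24 h, and 10.76 ± 1.09 with dexamethasone and 10.21 ± 0.99 with ethanol at 6 h (SD, n = 3 each).

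The second MT1G probe set, 210472_at, is the only metallothionein member without the _x_at suffix. It lay between 2.47 and 2.54 on all 12 arrays, under the filter of a log2 of 4 on at least 3 arrays, and was not tested. The values of the other 9 metallothionein probe sets therefore all come from probes that can match other transcripts, and which gene of the family gave the RNA cannot be read from them with certainty. In bulk RNA, fewer cells that express a gene and less RNA per cell cannot be told apart.

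**Figure D2:**
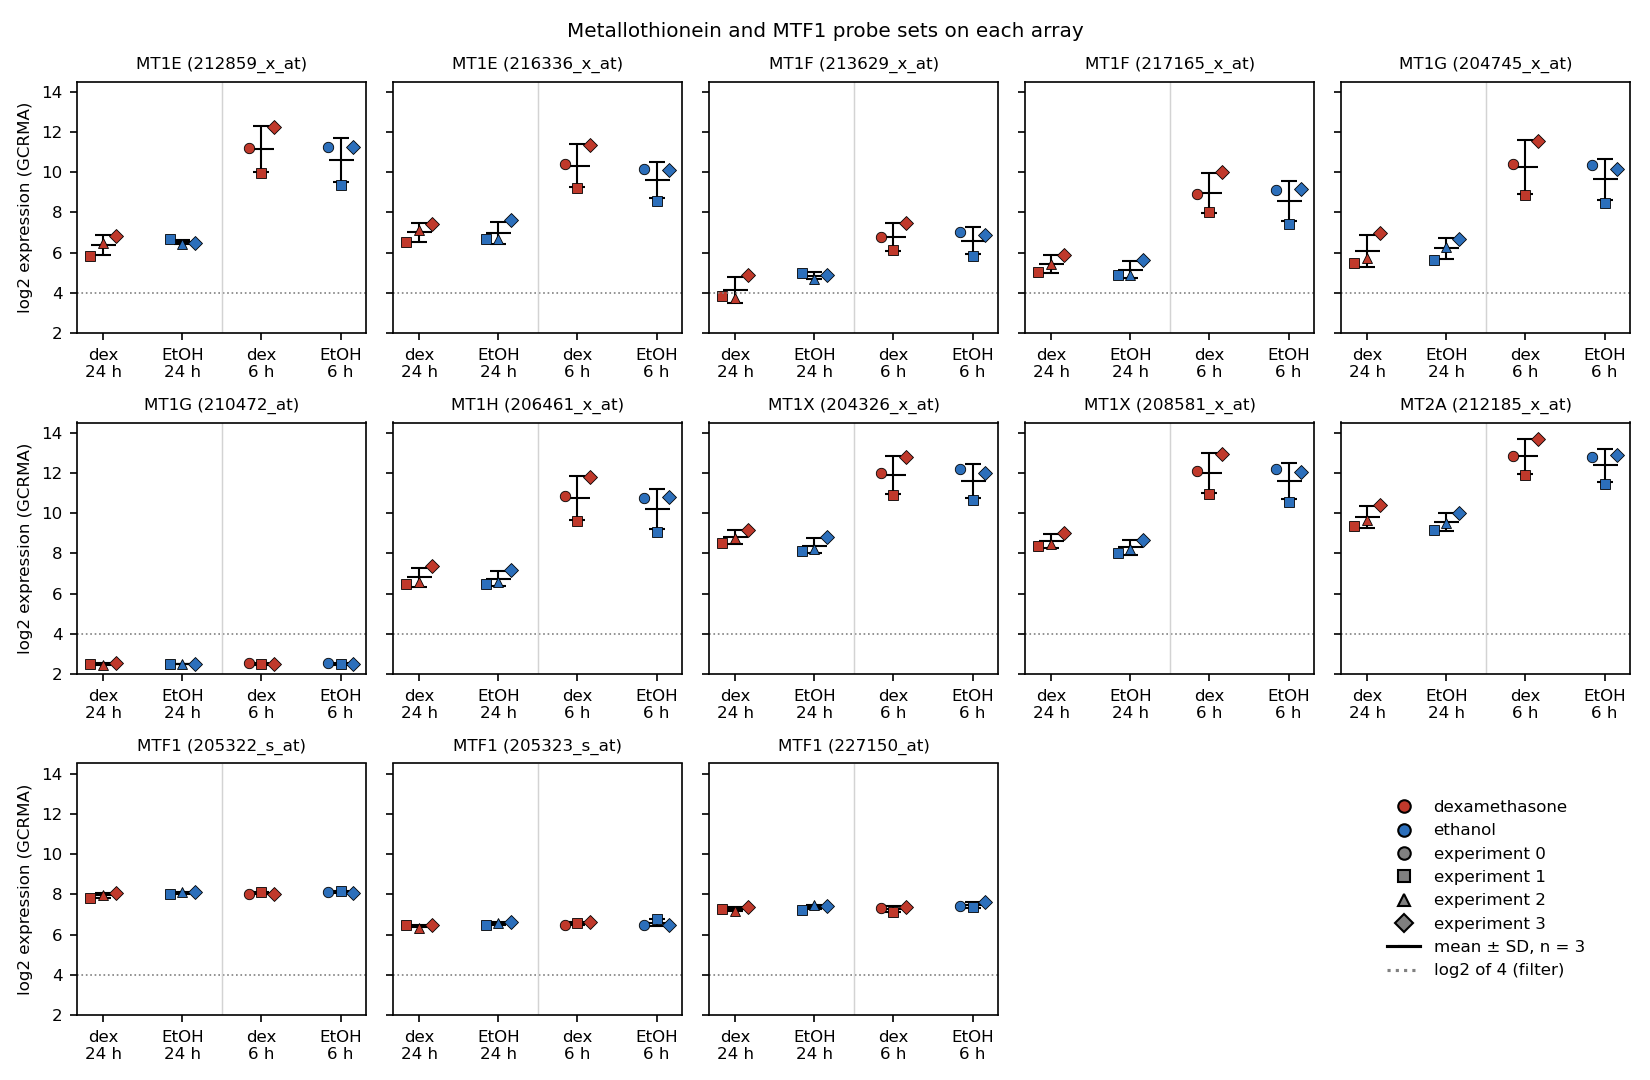
Deposited log2 expression of the 13 member probe sets on each of the 12 arrays, with dexamethasone in red and ethanol in blue, 24 h left and 6 h right, marker shape for the experiment and bars for the mean ± SD of 3 arrays. The 9 tested metallothionein probe sets stand lower on every 24 h array than on every 6 h array, 210472_at stays near 2.5, and the 3 MTF1 probe sets are level.

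The lower level of the metallothioneins at 24 h was the largest difference among the members, and it was found with both treatments. All 24 h arrays share 1 scan batch that holds no 6 h array, so time and batch cannot be told apart with either treatment. With dexamethasone all 9 tested probe sets fell at 24 h relative to 6 h, with a median log2 difference of -3.38, against a median of -0.0011 over all 23265 tested probe sets. The comparison was added after the values were seen, and 46.7% of all tested probe sets were called in it, 22.8% as lower (limma, adjusted p under 0.05). MT1E (212859_x_at) was 27.1-fold lower (log2 -4.76 ± 0.59, SE, adjusted p = 8.86e-05, limma), MT1G (204745_x_at) 18.3-fold lower (-4.19 ± 0.69, adjusted p = 0.000574) and MT1H 15.5-fold lower (-3.95 ± 0.57, adjusted p = 0.000229). These 3 held ranks 2 to 4 among all falls of that comparison, behind a probe set of HES1, a transcriptional repressor downstream of NOTCH. MT2A was 8.09-fold lower (-3.02 ± 0.49, adjusted p = 0.000553), and the smallest fall was that of MT1F (213629_x_at), 6.26-fold (-2.65 ± 0.41, adjusted p = 0.000413). The 9 calls were kept under each of the 21 alternatives tried.

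With ethanol alone, where no glucocorticoid was added, 6 of the 9 metallothionein probe sets fell at 24 h relative to 6 h, while 0.486% of all tested probe sets were called, 0.202% as lower. Their log2 differences ran between -4.09 and -1.73, with a median of -3.30, against a median of -0.0062 over all tested probe sets. MT1E (212859_x_at) was 17.1-fold lower (-4.09 ± 0.59, adjusted p = 0.0191, limma), MT1H 11.1-fold lower (-3.47 ± 0.57, adjusted p = 0.0281), MT1F (217165_x_at) 10.6-fold lower (-3.41 ± 0.54, adjusted p = 0.0259), MT1X 9.85-fold and 9.31-fold lower in its 2 probe sets (adjusted p = 0.0240 and 0.0229), and MT2A 7.04-fold lower (-2.82 ± 0.49, adjusted p = 0.0385). MT1G (204745_x_at, -3.44), MT1E (216336_x_at, -2.62) and MT1F (213629_x_at, -1.73) did not pass, with adjusted p of 0.0625, 0.0740 and 0.0962, though each had an unadjusted p under 0.05. By size the 9 differences held ranks 1 to 6, 8, 9 and 11 of 23265 among falls, and rank 7 was MT1HL1, a metallothionein-like gene on chromosome 1.

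These 6 calls rest on the spread shared by few arrays. They dropped to 0 without any 1 of the 3 ethanol arrays of 24 h, without the ethanol array of experiment 0 or of experiment 3 at 6 h, with no filter on dim probe sets, and when the 6 ethanol arrays were fitted alone (4 probe sets called in all). Without the ethanol array of experiment 1 at 6 h, the lowest of its group, 9 were called. Over all these alternatives the difference stayed between -4.73 and -1.41. All 6 arrays of 24 h lay below all 6 arrays of 6 h in each of the 9 probe sets, a pattern found in 2.96% of all tested probe sets. The 18S ribosomal RNA controls also differed between the times, and were higher at 24 h with both treatments. With ethanol they stood at 12.43 to 12.70 at 24 h and 10.59 to 12.41 at 6 h. With dexamethasone they stood at 12.465 to 13.20 at 24 h and 8.99 to 10.02 at 6 h. Dexamethasone minus ethanol was -2.27 in these controls at 6 h. Their part in the results was not tested.

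**Figure D3:**
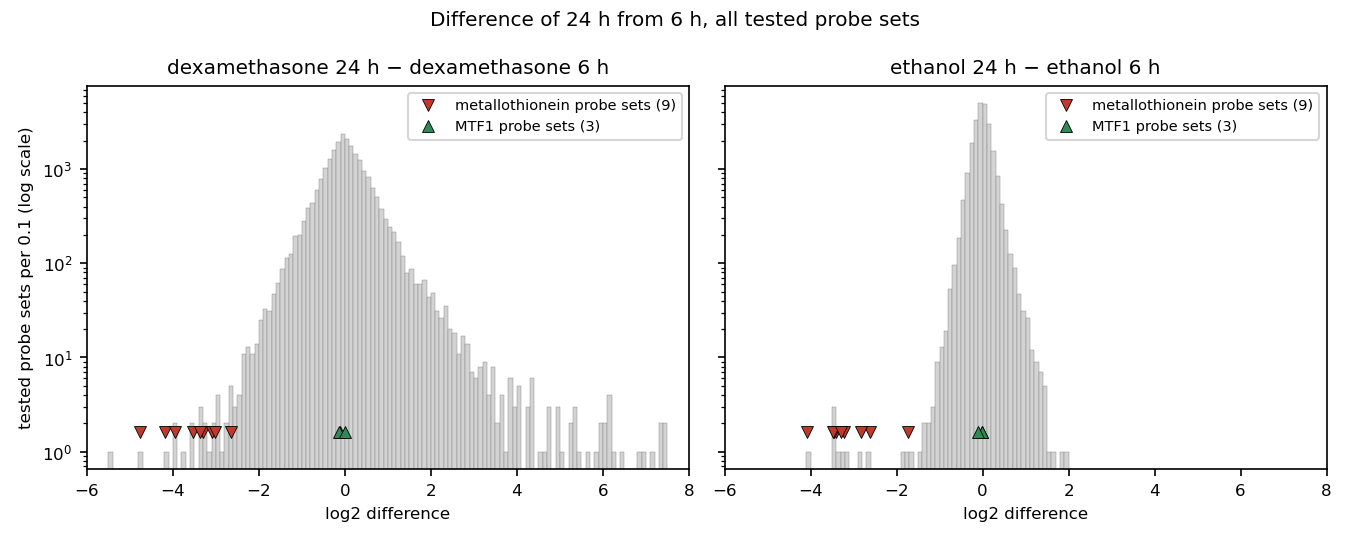
Histograms of the log2 difference of 24 h from 6 h over all 23265 tested probe sets, with dexamethasone on the left and ethanol on the right, in bins of 0.1 and with a log axis for the number of probe sets. Red triangles place the 9 metallothionein probe sets, from -4.76 to -2.65 with dexamethasone and from -4.09 to -1.73 with ethanol, and green triangles the 3 MTF1 probe sets, which stay near 0.

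Only experiment numbers 1 and 3 occur at both times, and the sample titles do not say whether a number means the same experiment at both. Under both numbers every tested metallothionein probe set was lower at 24 h. For MT2A, 24 h minus 6 h was -2.57 in experiment 1 and -3.31 in experiment 3 with dexamethasone, and -2.28 and -2.89 with ethanol. For MT1E (212859_x_at) it was -4.11 and -5.43 with dexamethasone, and -2.68 and -4.79 with ethanol. In each of the 9 probe sets the difference was larger in experiment 3 than in experiment 1 with either treatment.

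At 6 h the metallothioneins were also among the most variable probe sets between replicate arrays. Their SD over 3 arrays was 0.69 to 1.35 with dexamethasone and 0.66 to 1.10 with ethanol, against a median SD of 0.148 and 0.135 over all tested probe sets, and at least 98.7% of tested probe sets varied less than each of them in either group. At 24 h the SD was 0.33 to 0.81 with dexamethasone and 0.12 to 0.54 with ethanol, against a median of 0.124 and 0.107 over all tested probe sets. With ethanol at 24 h MT1E (212859_x_at) and MT1F (213629_x_at) did not stand out, since 55% and 74% of tested probe sets varied less than they did. The 9 probe sets varied together at 6 h, where Pearson's r over the 6 arrays was between 0.967 and 0.999 for the 36 pairs (median 0.992). At 24 h it was between -0.067 and 0.972 (median 0.784). These correlations are a description of arrays that share experiments, and of probes that can match the same transcripts. At 6 h the 18S controls were lowest in experiment 1 as well, at 8.99 against 9.57 and 10.02 in the other dexamethasone arrays, and at 10.59 against 12.39 and 12.41 in the other ethanol arrays. Their part in the metallothionein spread was not tested.

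At 24 h none of the 9 metallothionein probe sets was called between dexamethasone and ethanol, while 47.3% of all tested probe sets were. In that limma fit, without a block, adjusted p ran between 0.180 and 0.975, with 0 unadjusted p under 0.05. The log2 differences ran between -0.72 and 0.42 with a median of 0.07, against -0.0072 over all tested probe sets. MT2A was higher with dexamethasone in 3 of 3 experiments, by 0.19, 0.16 and 0.39, as were 36.5% of all tested probe sets. Its difference was 0.24 with a 95% interval of -0.85 to 1.33. That fit shares 1 spread over the 4 groups. The MT2A SD with dexamethasone and ethanol was 0.54 and 0.43 at 24 h, against 0.89 and 0.82 at 6 h. With the experiment as a block in the fit, the interval at 24 h was -0.08 to 0.57. MT1X was higher in 3 of 3 experiments in both probe sets, by 0.39, 0.53 and 0.35 in 204326_x_at and by 0.38, 0.24 and 0.32 in 208581_x_at. The blocked 95% interval was 0.02 to 0.82 in 204326_x_at (limma, adjusted p = 0.0677) and -0.09 to 0.72 in 208581_x_at. On the spike scale the only probe set of the 9 that stayed positive was 204326_x_at.

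The 2 probe sets of MT1F parted at 24 h. In 213629_x_at the level was 3.82, 3.72 and 4.88 with dexamethasone, against 5.00, 4.66 and 4.90 with ethanol, and the first 2 dexamethasone arrays were below the log2 of 4 that served as the filter. The difference was -0.72 ± 0.41 (SE, limma adjusted p = 0.180). Blocking on the experiment called it (adjusted p = 0.0415), the only 1 of the 9 to be called, in a fit that called 56.5% of all tested probe sets. In 217165_x_at the level was 5.01, 5.41 and 5.87 with dexamethasone, against 4.90, 4.90 and 5.64 with ethanol, and the difference was 0.29 ± 0.54 (adjusted p = 0.698). The MT1E probe sets differed by -0.15 and 0.03, MT1G by -0.13 and MT1H by 0.07, each with experiments of both signs.

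At 6 h, too, none of the 9 was called, while 6.2% of all tested probe sets were. In the limma fit without a block, adjusted p ran between 0.529 and 0.857, with 0 unadjusted p under 0.05. All 9 differences were positive on the deposited scale, between 0.19 and 0.72 with a median of 0.44, against -0.011 over all tested probe sets, but 5 of the 9 were negative on the spike scale. The largest was that of MT1E (216336_x_at), at 10.38, 9.21 and 11.36 with dexamethasone, against 10.17, 8.55 and 10.08 with ethanol, a difference of 0.72 with a 95% interval of -0.52 to 1.96. MT2A differed by 0.44 with a 95% interval of -0.65 to 1.53, which includes a 2.89-fold rise. The size depended on the experiment. In experiment 0 the 9 differences lay between -0.28 and 0.21, in experiment 1 between 0.25 and 0.66, and in experiment 3 between 0.58 and 1.40, the last in MT1G.

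With the experiment as a block, which takes out the level that the 2 arrays of an experiment share, the standard error of MT2A at 6 h was 0.14 in place of 0.49. No metallothionein was called in that fit either. The lowest adjusted p were 0.0669 for MT1H, 0.0704 for MT1E (216336_x_at) and 0.0811 for MT2A, while 13.1% of all tested probe sets were called. In 4 of the 9 probe sets, MT1E (216336_x_at), MT1G, MT1H and MT2A, dexamethasone was above ethanol in all 3 experiments, a pattern found in 25.9% of all tested probe sets.

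**Figure D4:**
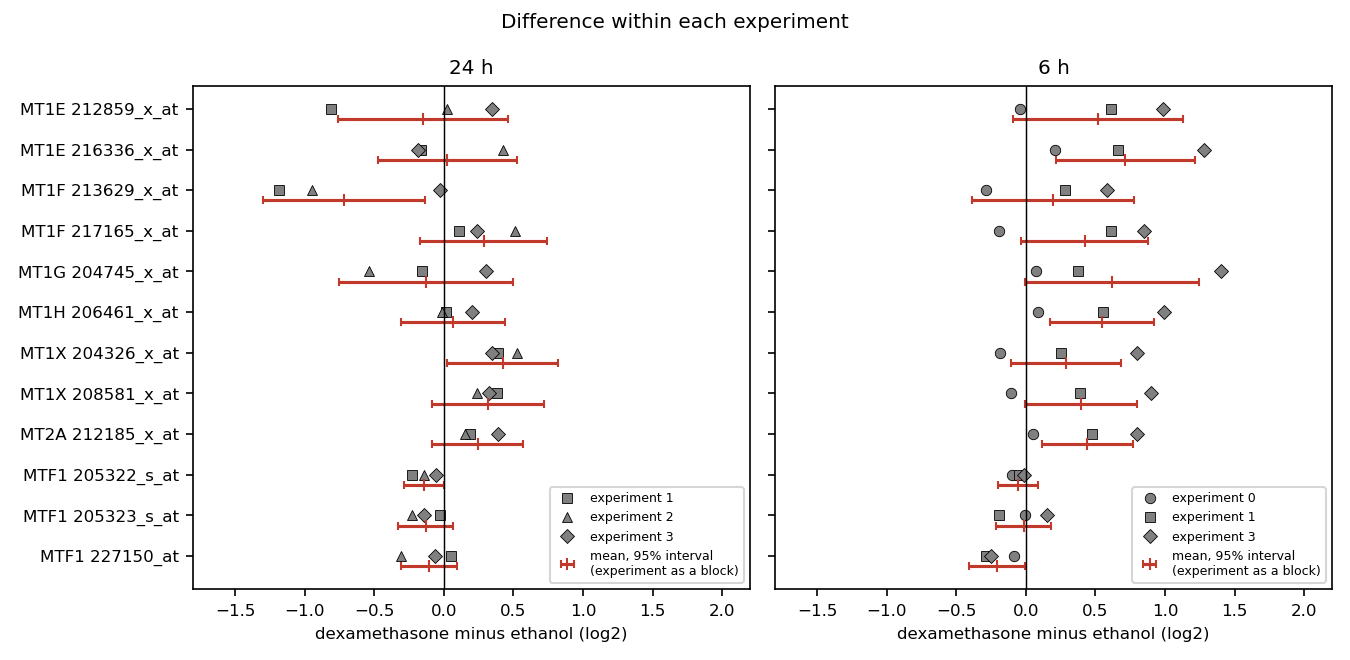
Log2 difference of dexamethasone from ethanol within each experiment (grey markers, shape for the experiment) for the 12 tested member probe sets, 24 h left and 6 h right. Red bars are the mean with its unadjusted 95% interval from the fit with the experiment as a block. At 6 h experiment 3 lies highest and experiment 0 lowest in each metallothionein row, and at 24 h MT1F (213629_x_at) stands apart on the negative side.

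The difference between the responses, 24 h minus 6 h, was called for none of the 9 metallothionein probe sets (limma, adjusted p between 0.303 and 0.953, 0 with an unadjusted p under 0.05), while 23.1% of all tested probe sets were called. It ran between -0.91 for MT1F (213629_x_at) and 0.13 for MT1X (204326_x_at), with a median of -0.48, against 0.011 over all tested probe sets. Blocking on the experiment called none either (lowest adjusted p = 0.0850, 33.9% of all tested probe sets called). That lowest value was of MT1F (213629_x_at), with an unadjusted p of 0.0345 in the blocked limma fit.

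MTF1, the factor, did not share the pattern of the metallothioneins. In 205322_s_at it stood at 7.80, 7.99 and 8.04 with dexamethasone at 24 h, against 8.03, 8.13 and 8.10 with ethanol. At 6 h it stood at 8.01, 8.11 and 8.04 with dexamethasone, against 8.11, 8.15 and 8.05 with ethanol. All 12 arrays lay within a narrow band and the groups overlapped. With ethanol, 24 h differed from 6 h by -0.02, -0.02 and -0.10 in the 3 MTF1 probe sets, and with dexamethasone by -0.11, -0.14 and -0.01, with no call (adjusted p between 0.249 and 0.970, 0 with an unadjusted p under 0.05).

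Between the treatments, MTF1 was called at neither time on the deposited scale (0 with an unadjusted p under 0.05 in the unblocked fit). In the blocked limma fit 227150_at at 6 h had an unadjusted p of 0.0480 and an adjusted p of 0.164. At 24 h its 3 probe sets differed by -0.14, -0.13 and -0.11 (limma, adjusted p = 0.156, 0.276 and 0.437), with 95% intervals that together span -0.34 to 0.13. At 6 h they differed by -0.05, -0.02 and -0.20 (adjusted p = 0.764, 0.958 and 0.320). On the spike scale all 3 were called as lower at both times, with differences of -0.48, -0.47 and -0.45 at 24 h and of -0.52, -0.48 and -0.67 at 6 h. That scale lowers the difference of every probe set, by 0.34 at 24 h and by 0.47 at 6 h. At 6 h its fit called 15407 of the 23265 probe sets, 15132 of them as lower. These calls are therefore not particular to MTF1.

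Of the other metallothionein genes, 4 had a probe set with a single symbol. MT1HL1 (211456_x_at), again read by cross-matching probes, averaged 8.22 with dexamethasone and 7.95 with ethanol at 24 h, and 11.45 with dexamethasone and 11.05 with ethanol at 6 h. It fell at 24 h relative to 6 h with dexamethasone (-3.23 ± 0.47, limma adjusted p = 0.000255) and with ethanol (-3.10 ± 0.47, adjusted p = 0.0229), and was called between treatments at neither time. MT3, the growth inhibitory factor of brain, stood between 4.47 and 4.78 on all 12 arrays and was called in no comparison. MT1M and MT4 stayed under 2.5 on all arrays and were not tested.

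Several genes that move zinc across membranes were called after 24 h of dexamethasone. Of 11 tested zinc importers of the SLC39 family 6 fell and none rose at 24 h, and 1 fell at 6 h, with a median difference of -0.31 at 24 h against -0.0072 over all tested probe sets, of which 24.5% were called as lower. SLC39A14, an importer of zinc, iron and manganese, stood at 8.18, 8.75 and 8.32 with dexamethasone at 24 h, against 9.99, 10.16 and 10.09 with ethanol. It fell by 1.66 on the log2 scale (SE 0.14, limma adjusted p = 5.14e-06). The groups did not overlap, as in 61.1% of all tested probe sets, in either direction. SLC39A6, a zinc importer of the plasma membrane, fell by 0.76 at 24 h (adjusted p = 4.59e-05) and was the importer that fell at 6 h, by 0.34 (adjusted p = 0.0490), a call lost under 14 of 21 alternatives (adjusted p up to 0.151). SLC39A3 fell by 0.52 and SLC39A8 by 0.31 at 24 h (adjusted p = 0.000498 and 0.00371). The blocked fit gave 7 importers that fell and 2 that rose at 24 h, and 3 that fell at 6 h. It called 56.5% of all tested probe sets at 24 h and 13.1% at 6 h.

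Of 5 tested zinc exporters of the SLC30 family, SLC30A7, which carries zinc into the Golgi, rose at 24 h (0.33 ± 0.08, limma adjusted p = 0.00857). In that unblocked fit no other exporter rose, while 22.8% of all tested probe sets did. None was called in it at 6 h (0 with an unadjusted p under 0.05). The SLC30A7 difference at 24 h was -0.012 on the spike scale. SLC30A1, the exporter of the plasma membrane that MTF1 drives, is given here after its values were seen. It stood at 8.94, 8.87 and 9.38 with dexamethasone at 24 h, against 7.74, 7.65 and 8.77 with ethanol. All 3 dexamethasone arrays were above all 3 ethanol arrays (61.1% of all tested probe sets had groups that did not overlap, in either direction), and the difference of 1.01 ± 0.58 was not called (adjusted p = 0.180). Blocking on the experiment called it (adjusted p = 0.000657). At 6 h SLC30A1 stood at 7.81, 9.05 and 9.85 with dexamethasone, against 7.88, 8.99 and 10.07 with ethanol, lowest in experiment 0, where no metallothionein was lowest.

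Among 6 tested copper genes CCS, the copper chaperone of SOD1, rose at 24 h (0.68 ± 0.25, limma adjusted p = 0.0454), while 22.8% of all tested probe sets rose and 24.5% fell. SLC31A1, the copper importer, ATOX1, a copper chaperone, and SOD1, the copper and zinc superoxide dismutase, fell by 0.31, 0.32 and 0.21 (adjusted p = 0.0318, 0.0474 and 0.0336). These 4 calls were near the threshold: of 21 alternatives, 9 lost that of CCS (adjusted p up to 0.192), 10 that of ATOX1 (up to 0.145), 6 that of SLC31A1 (up to 0.103) and 5 that of SOD1 (up to 0.178), among them the omission of several single arrays of 24 h in each case. Blocking on the experiment lost SLC31A1 (adjusted p = 0.0555). It called SLC31A2, a related copper transporter, as lower at 24 h (adjusted p = 0.0267) and, barely, at 6 h (adjusted p = 0.04999). The blocked fit called 56.5% of all tested probe sets at 24 h and 13.1% at 6 h. In the unblocked fit no copper gene was called at 6 h (1 with an unadjusted p under 0.05).

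Among 7 tested genes of the metal and oxidant response, GCLC, the catalytic subunit of the first enzyme of glutathione synthesis, rose at 24 h by 1.21 ± 0.12 (adjusted p = 1.17e-05), at 11.15, 10.96 and 11.51 with dexamethasone against 10.05, 9.96 and 9.98 with ethanol. NFE2L2, a factor that activates oxidant defence genes, rose by 0.37 at 24 h and 0.49 at 6 h (adjusted p = 0.00181 and 0.00323), and on the spike scale differed by 0.035 and 0.023 with no call. Its inhibitor KEAP1 fell by 0.26 at 24 h (adjusted p = 0.0258), and TXNRD1, thioredoxin reductase, fell by 0.35 at 6 h (adjusted p = 0.0355). Over all tested probe sets limma called 47.3% at 24 h and 6.2% at 6 h, in either direction. Of 21 alternatives 6 lost the call of KEAP1 (adjusted p up to 0.102) and 10 that of TXNRD1 (up to 0.117), among them the omission of any single array of 6 h for TXNRD1 and of 4 of the 6 arrays of 24 h, each in turn, for KEAP1. In the blocked fit, which called 56.5% of all tested probe sets at 24 h, 4 stress genes rose, NQO1 and SLC7A11 being added (adjusted p = 0.0312 and 0.00389). HMOX1, the heme oxygenase gene that metals and heme induce, lay under 2 on all 12 arrays. None of the zinc, copper and stress genes of these lists was called by limma in ethanol between 24 h and 6 h, where 3 importers, 2 stress genes and 0 exporters or copper genes had an unadjusted p under 0.05.

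**Figure D5:**
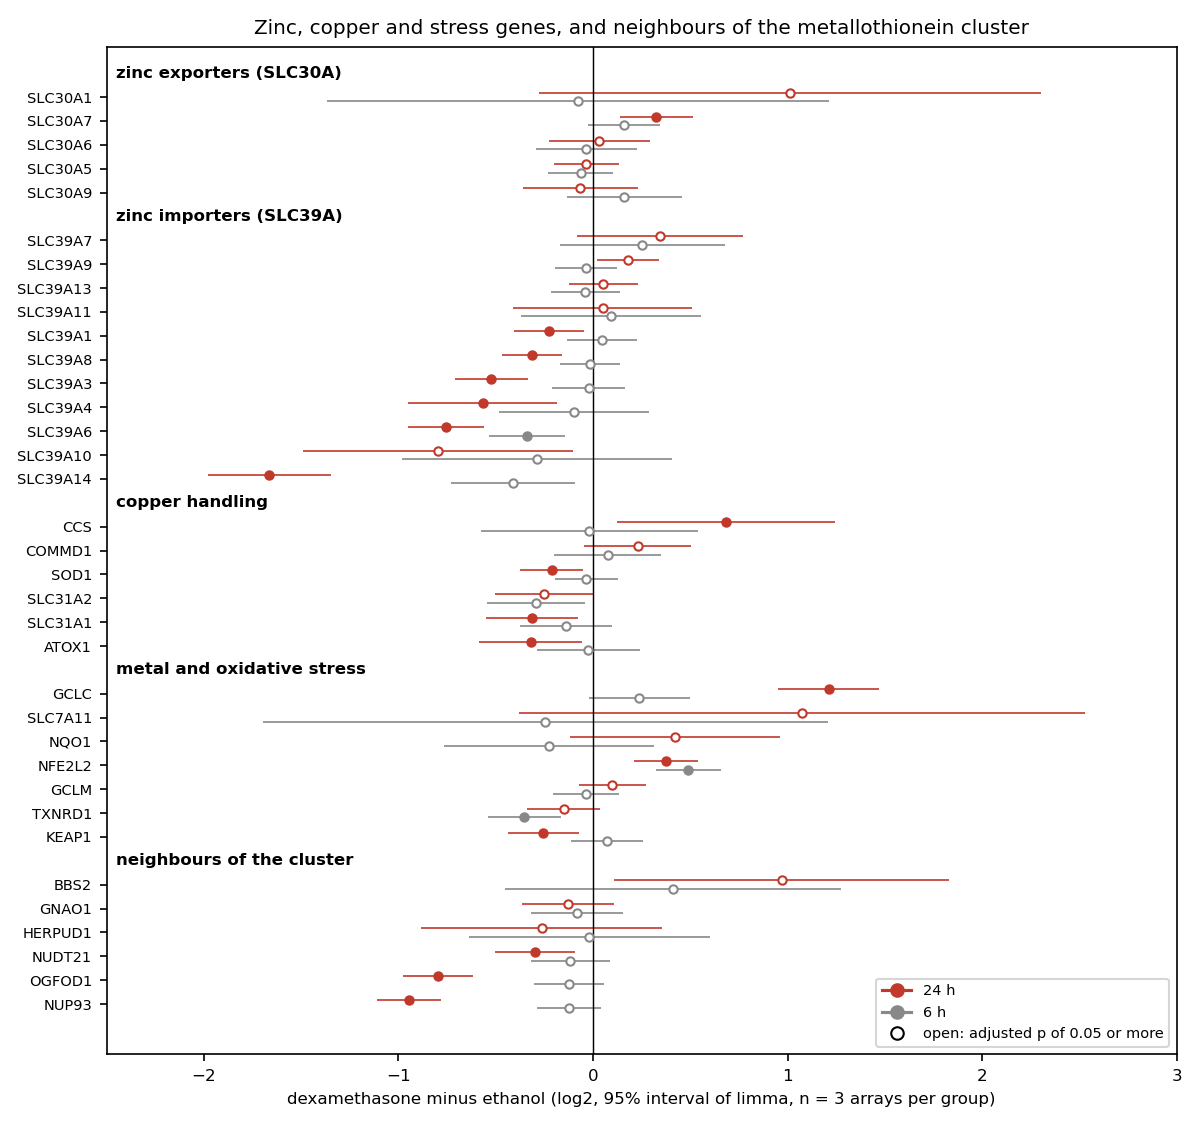
Log2 difference of dexamethasone from ethanol with limma's 95% interval for the tested zinc, copper and stress genes and the neighbours of the metallothionein cluster, 24 h in red above 6 h in grey (n = 3 arrays per group). Filled markers passed an adjusted p of 0.05, as SLC39A14 at -1.66 and GCLC at 1.21 did at 24 h.

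The genes on either side of the metallothionein cluster were read beside it. None of 6 tested neighbours was called by limma in ethanol between 24 h and 6 h (0 with an unadjusted p under 0.05), where their median difference was -0.039. Between these times 2 of the neighbours fell with dexamethasone, where their median was -0.36 and 22.8% of all tested probe sets fell. With dexamethasone at 24 h 3 of them fell, NUP93, a nuclear pore protein, by 0.95 (limma adjusted p = 2.6e-06), OGFOD1, a ribosomal protein hydroxylase, by 0.80 (adjusted p = 1.81e-05), and NUDT21, a subunit of the mRNA cleavage machinery, by 0.30 (adjusted p = 0.0223, lost under 5 of 21 alternatives, up to 0.113), while 24.5% of all tested probe sets fell. The blocked fit, which called 56.5% of all tested probe sets at 24 h, called 4 as lower, HERPUD1, an endoplasmic reticulum stress gene, being added (adjusted p = 0.00982), and 1 as higher, BBS2, a gene of the cilium (adjusted p = 0.00158). None was called at 6 h in either fit (0 with an unadjusted p under 0.05 in the unblocked one). NUP93, which follows MT1X in the annotation, stood at 9.28, 9.20 and 9.21 with dexamethasone at 24 h, against 10.13, 10.22 and 10.18 with ethanol.

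The genes most like MT2A over the 12 arrays, by Pearson's correlation among 19152 tested probe sets with 1 symbol, were SAP18 (r = 0.969), ACP1 (r = 0.968), HACD3 (r = 0.966) and APMAP (r = 0.963). All share with MT2A the split of the 12 arrays by time, and within the 6 arrays of a time r was 0.746 to 0.870 at 24 h and 0.729 to 0.921 at 6 h. Their range was smaller: SAP18 lay between 8.56 and 8.76 at 24 h and between 8.91 and 9.52 at 6 h. Those most like MTF1 (205322_s_at) were DYNLL2 (r = 0.919), MLLT6 (r = 0.918), YKT6 (r = 0.917) and RNF126P1 (r = 0.910).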

How the data were processed

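The authors deposited 1 table of log2 expression values per probe set, and per the submitters' processing notes these were made with GCRMA and R 2.6. The sources used here give no GCRMA settings. Array medians were 3.01 to 3.12, and 22503 to 22941 probe sets per array reached a log2 of 4. The number of arrays limits the precision. Probe sets at 4 or more on at least 3 of 12 arrays were tested (23265), without the 62 control probe sets. In the platform annotation 1801 probe sets had several symbols, 11777 had none, and 41091 other than controls had 1. Group means over all 12 arrays were fitted in limma 3.58.1 (R 4.3.3, 8 residual degrees of freedom), with Benjamini-Hochberg adjustment over all tested probe sets, and the script was tested on simulated data. A call is an adjusted p under 0.05. Errors of differences are limma's standard errors.

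All member probe sets were reported. From each gene list the called genes were named, at most 4 by p at 24 h, with 1 probe set a gene (the highest mean over all arrays), and genes behind counts of 5 or fewer were added after their values were seen. The members and lists were chosen with earlier results of these data known. Experiment numbers pair the samples: deviations of same-numbered arrays from their group means correlated, with r = 0.286, 0.238 and 0.424 among the 24 h pairs and r = 0.417, 0.627 and 0.609 among the 6 h pairs. The fit reported first has no block. Alternatives were the block, filters, scales, an intensity trend, fewer arrays and each array left out. Promoters are RefSeq's for GRCh38.p14.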

Additional observations from a re-analysis of the deposited data

Results flagged for a closer look

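For 6 genes of the zinc, stress and neighbour lists the dexamethasone response at 24 h differed from that at 6 h by the test of the difference itself (limma, adjusted p under 0.05), and for no metallothionein or MTF1 probe set. Of all tested probe sets 23.1% were called in the same test, so such calls are common on these arrays. The log2 difference of the responses was -1.25 for SLC39A14 (adjusted p = 0.0016), -0.50 for SLC39A3 (adjusted p = 0.0135) and -0.42 for SLC39A6 (adjusted p = 0.0346, lost under 10 of 20 alternatives). It was 0.97 for GCLC (adjusted p = 0.00208). It was -0.82 for NUP93 (adjusted p = 0.000393) and -0.67 for OGFOD1 (adjusted p = 0.00221). On the spike scale the calls of SLC39A3 and OGFOD1 were lost (adjusted p = 0.273 and 0.105). The 6 h response that enters each value is confounded with the scan batches.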

How the results depend on the processing

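The calls of all 9 metallothionein probe sets in dexamethasone, 24 h against 6 h, held under each alternative, and no metallothionein or MTF1 probe set was called in the difference of the responses under any. In ethanol, 24 h against 6 h, the 6 metallothionein calls became 0 with no filter, with only the arrays compared, and with experiments 1 and 3 alone as a shared replicate block, and 0 to 9 with 1 array left out. All calls of that comparison (113) became 373 with a shared random replicate block, 190 with a filter at 6, 37 on the spike scale, 269 with an intensity trend, 4 with only the arrays compared, 0 with experiments 1 and 3 alone, and 0 to 267 with 1 array left out. At 6 h all calls (1443) became 3039 with the replicate block within time, 2371 with the shared block, 15407 on the spike scale, 490 with only the arrays compared and 848 to 1385 with 1 array left out. Calls of the difference of the responses (5380) became 3299 on the spike scale. Metallothionein calls at 24 h became 1 with the block and 1 on the spike scale, and MTF1 calls became 3 at each time on the spike scale. These spike-scale calls were all as lower, on a scale that lowers every difference between the treatments. The pairing changed no other call of a member.

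Differences between the treatments that were not called changed sign. On the spike scale at 24 h MT1E (216336_x_at) became -0.31 (-0.0062 when median centred), MT1F (217165_x_at) -0.051, MT1H -0.27, MT1X (208581_x_at) -0.023, MT2A -0.094 and SLC30A7, called before, -0.012. On the spike scale at 6 h MT1F became -0.27 and -0.044 in its 2 probe sets, MT1X -0.18 and -0.073 and MT2A -0.026. With 1 array left out, at 24 h MT1E ran from -0.37 to 0.11 (212859_x_at) and -0.18 to 0.34 (216336_x_at), MT1G from -0.59 to 0.16, MT1H from -0.21 to 0.28 and MT2A from -0.050 to 0.48. At 6 h MT1E (212859_x_at) ran from -0.12 to 1.11, MT1F from -0.19 to 0.53 (213629_x_at) and -0.15 to 0.91 (217165_x_at), MT1G from -0.019 to 1.32, MT1H from -0.027 to 1.11, MT1X from -0.20 to 0.79 (204326_x_at) and -0.13 to 0.92 (208581_x_at), MT2A from -0.028 to 0.89 and MTF1 (205323_s_at) from -0.066 to 0.084. The metallothionein signs that turned at 6 h with 1 array left out did so without dexamethasone experiment 3 or without ethanol experiment 1. Those of MT1G, MT1H and MT2A turned under only 1 of these omissions. MT1E (216336_x_at) stayed positive under all alternatives at 6 h, between 0.19 and 1.27. Apart from the spike scale and these arrays the cause was not tested.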
